A study of Yarrowia lipolytica with 4 samples.

Results

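The genes described here encode histones and chromatin modifiers of *Yarrowia lipolytica*, an oil-accumulating yeast. They were chosen by a rule on description and pathway terms, set with earlier results of these data known. Of 6797 genes in the deposited count table, 56 had a description holding any of 7 terms (histone, chromatin, bromodomain, SET domain, nucleosome, SNF2 or sirtuin). After 1 gene annotated to nucleotide excision repair was left out by a list of 5 pathway terms, 55 remained. RNA was sequenced from 4 libraries, 2 of F19 and 2 of its control, WLH. Both strains are labelled PO1f, a leucine- and uracil-requiring laboratory background. All 4 libraries came from cells grown for 48 h at 30 °C in SD-leu, a medium without leucine, that held 2.4 mM furfural. Furfural is an inhibitory aldehyde of plant biomass hydrolysates, and the study searched a CRISPR interference library, in which a guide RNA lowers the transcription of a chosen gene, for genes that affect tolerance to it. The sources used here name neither the gene repressed in F19 nor whether F19 is 1 clone, so no targeted gene could be checked against the labels. No library grown without furfural was analysed here, so every comparison is between strains in the same medium.

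In a nucleosome, DNA is wrapped around a core of the histones H2A, H2B, H3 and H4, and linker histone H1 binds where the DNA enters and leaves it. Histone chaperones escort new histones to DNA, remodelling enzymes of the SNF2 family use ATP to slide, evict or exchange them, and further enzymes add or remove acetyl and methyl groups on their tails. Proteins with a bromodomain bind acetylated lysines, and the complexes these proteins form are known mainly from *Saccharomyces cerevisiae* and *Schizosaccharomyces pombe*, the species behind the roles given here unless another is named.

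The descriptions held up against the remaining annotation for most of the 55 genes, but not for all. Of 5 genes described only as histone-fold proteins, 2 carry a term of the CCAAT-binding factor and 1 of negative cofactor 2, which are transcription factors built on the histone fold and not nucleosomal histones, and 1 has the ortholog number of histone H4. KTI12, described as chromatin associated, is known mainly for its part in tRNA modification. The 2 abundant histone H4 genes and the linker histone H1 gene are described as hypothetical and so lay outside the rule; they were found by their ortholog numbers and are given beside the histones.

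Each library held between 18268878 and 24165223 counts, and libraries of 1 strain correlated at r = 0.987 in F19 and r = 0.992 in WLH across genes on the log scale. The histone and chromatin genes together took 0.837% and 0.782% of gene counts in the F19 libraries and 0.590% and 0.690% in the WLH libraries. Levels below are CPM (counts relative to the library's scaled total), scaled between libraries by edgeR's TMM factors, and levels of different genes are compared only as FPKM, which divides by gene length. Nothing in the labels ties the replicates of a strain to separate cultures; p-values therefore cover the variation among these 4 libraries, possibly technical, and nothing beyond it. The libraries hold bulk RNA, in which fewer cells expressing a gene and less of its RNA per cell cannot be told apart.

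In F19 against WLH, the chromatin genes moved in both directions and mostly by small amounts. The gene of the histone H3 lysine-4 methyltransferase was higher by 2.36-fold, the only member changed by at least 2-fold, and EAF1, a CCAAT-binding factor gene and several SNF2-family genes were higher by 1.5- to 1.8-fold. NHP6, an abundant DNA-bending chromatin protein, and a gene with the negative cofactor 2 term were lower by 1.81-fold and 1.98-fold. RNA of the core histones H3, H2A and H4 differed by less than the spread between replicates.

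Of 54 genes with enough counts, 23 changed by edgeR's quasi-likelihood test (Benjamini-Hochberg adjusted p under 0.05), which is 42.6% beside 51.4% of all 6414 genes tested. There were 14 that rose, or 25.9% beside 25.9% of all genes, and 9 that fell, or 16.7% beside 25.5%. The single change of at least 2-fold stands beside 19.6% of all genes. Log2 fold changes ran from -0.98 to 1.24 with a median of 0.03, beside 0.01 for all genes, and 77.8% of the members lay within 1.5-fold beside 56.3% of all genes; this contrast was not tested. CPM did not overlap between the strains for 25 members higher in F19 and 20 lower, beside 39.9% and 39.7% of all genes, or 79.5% in either direction.

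The split between higher and lower members depended on scaling. With library totals in place of TMM, 23 members rose and 2 fell (negative cofactor 2 and NHP6), beside 37.7% of all genes that rose and 16.6% that fell under the same scaling. The median of all genes then moved to 0.24, so folds are relative to the typical gene. The total count of changed members was 9 without WLH replicate 1 and 8 without WLH replicate 2, which is 16.7% and 14.8% beside 29.6% and 25.9% of all genes in those fits, where the remaining WLH library is assumed to vary like the F19 libraries.

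**Figure D1:**
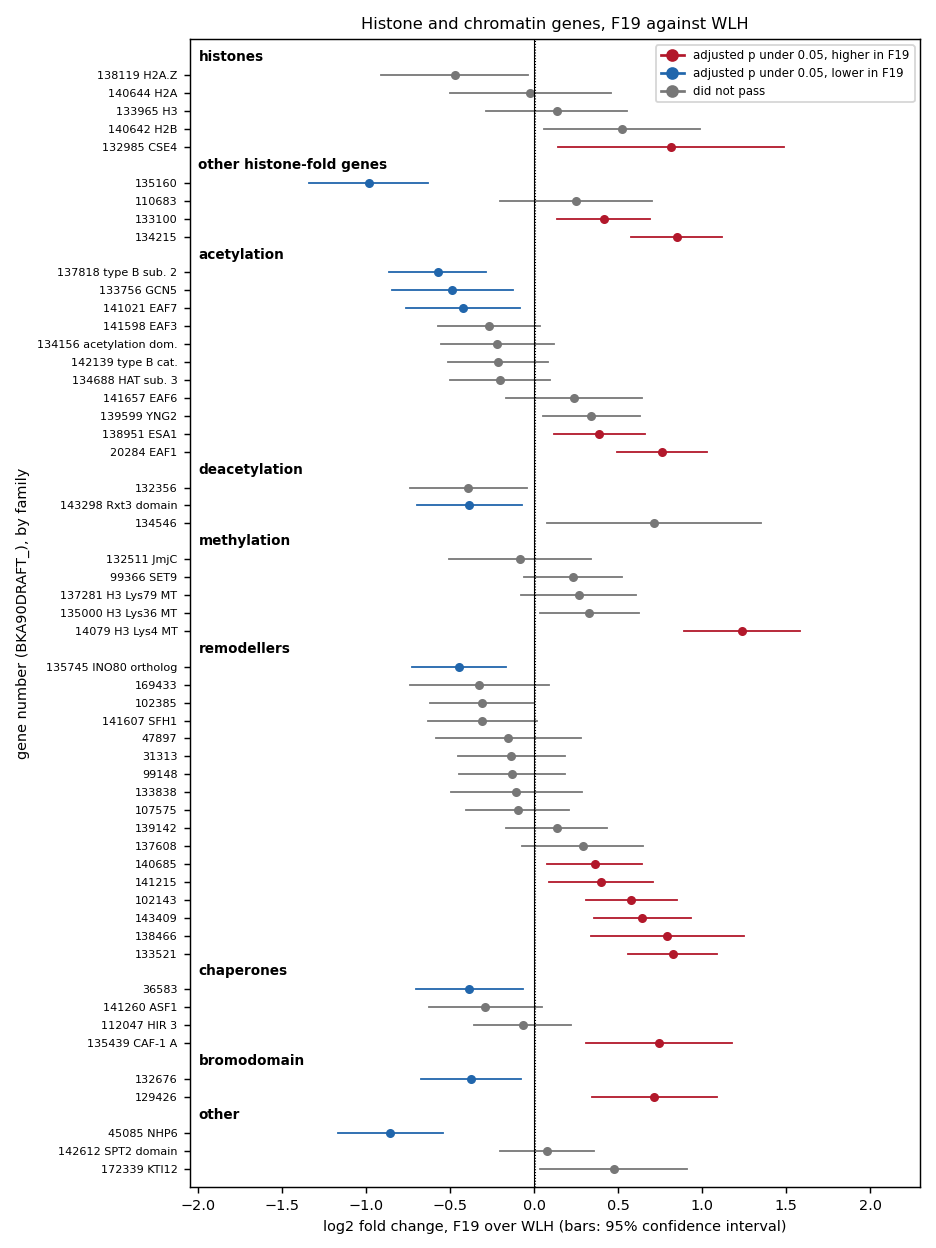
Log2 fold change, F19 over WLH, of the 54 tested genes by family, with bars for the 95% confidence interval and colour for genes past the threshold in edgeR. The 14 genes that rose and the 9 that fell are spread over the families, with the H3 lysine-4 methyltransferase at 1.24 and a negative cofactor 2 gene at -0.98 as the extremes.

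The core histone genes were among the most strongly expressed genes in both strains. By length-scaled level, averaged over the 4 libraries, H3 (BKA90DRAFT_133965) had 1937 FPKM and rank 31 among all genes, H2B (BKA90DRAFT_140642) 1618 FPKM and rank 57, and H2A (BKA90DRAFT_140644) 1364 FPKM and rank 86. The H4 genes lay beside H2A, with 1364 FPKM for BKA90DRAFT_133966 and 1367 FPKM for BKA90DRAFT_142127. Every other member was at or below 367 FPKM, the level of NHP6. The 3 core histone genes that belong to the set took 45.2% and 41.5% of its counts in F19 and 36.6% and 42.5% in WLH.

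Most of these genes lie in divergent pairs. H3 is at 213200 to 213728 of scaffold ML755982.1 on the minus strand, and an H4 gene begins 1296 bases away at 215025 on the plus strand. H2B is at 62989 to 63677 of scaffold ML756032.1 on the minus strand, and H2A begins 412 bases away at 64090 on the plus strand. No gene is annotated within either gap. The second H4 gene lies on another scaffold, ML756055.1, at 54341 to 54976.

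H3 had 1098 and 1036 CPM in the F19 libraries and 847 and 1098 CPM in the WLH libraries. The strains overlapped, and the log2 fold change was 0.13 with a 95% interval from -0.28 to 0.55 (edgeR adjusted p = 0.552). H2A also overlapped, with 966 and 780.4 CPM in F19 and 749.6 and 1025 CPM in WLH and an interval from -0.50 to 0.46 around a log2 fold change of -0.02. These estimates have no settled sign: H3 was at -0.04 without WLH replicate 1, and H2A at 0.21 with library totals and at 0.13 and 0.22 without F19 or WLH replicate 2. The H4 gene of the pair had 622 and 556 CPM in F19 and 467 and 643 CPM in WLH, and its interval ran from -0.36 to 0.53. For each of these genes WLH replicate 1 was the lowest library, and the WLH libraries differed more from each other than the F19 libraries did. The sources used here do not say how reads shared by near-identical histone copies were counted, so the levels of single H4 copies are uncertain.

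H2B was the core histone gene whose libraries did not overlap, at 1374 and 1212 CPM in F19 against 760.0 and 1043 CPM in WLH. It did not pass the threshold: its log2 fold change was 0.52 ± 0.20 (SE, n = 2 a strain), with an interval from 0.06 to 0.98 and an adjusted p of 0.0607. It passed with library totals, where the adjusted p was 0.0178, and in DESeq2, where it was 0.0201, and its adjusted p was 0.362 without WLH replicate 1.

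The variant histones are expressed far below the core histones. H2A.Z (BKA90DRAFT_138119), which replaces H2A at promoters, averaged 88.7 FPKM. Its libraries held 47.8 and 35.1 CPM in F19 and 51.9 and 63.4 CPM in WLH, without overlap. Its log2 fold change of -0.47 ± 0.19 (SE) did not pass, at an adjusted p of 0.0688. H2A.Z turned on the F19 libraries: without replicate 1 it passed, at -0.72 and an adjusted p of 0.0193, and without replicate 2 it did not, at -0.26 and 0.282. A replicate block, a pairing that the labels do not state, gave an edgeR adjusted p of 0.0230, and library totals gave -0.24 and 0.343. CSE4 (BKA90DRAFT_132985), the H3 variant that marks centromeres, averaged 7.91 FPKM, with 7.14 and 4.87 CPM in F19 and 3.35 and 3.49 CPM in WLH. CSE4 rose by a log2 fold change of 0.81 ± 0.28 (SE) at an adjusted p of 0.0474, and the call was lost in DESeq2 (0.0555) and without F19 replicate 1 (0.220) or WLH replicate 1 or 2 (0.184 and 0.162). Its span overlaps by 55 bases a gene on the opposite strand, BKA90DRAFT_132984. That gene had 355 and 389 CPM in F19 and 258 and 228 CPM in WLH. These are more counts than CSE4 had in every library, without scaling by length. BKA90DRAFT_132984 rose by a log2 fold change of 0.61 (edgeR adjusted p = 0.0103). The reads of overlapping genes cannot be told apart without strand. The histone-fold gene with the H4 ortholog number (BKA90DRAFT_143801) had 2 and 3 counts in F19 and 1 and 0 in WLH and was not tested. A further gene with this number, BKA90DRAFT_156333, lay outside the rule and had 17 and 23 counts in F19 and 4 and 9 in WLH. Its log2 fold change of 1.49 did not pass (edgeR adjusted p = 0.0690). It passed with library totals (0.0420) and a replicate block (0.0346) and not in DESeq2 (0.177). Linker histone H1 (BKA90DRAFT_132808), outside the rule, had 140.3 and 124 CPM in F19 and 99.8 and 99.7 CPM in WLH and rose by a log2 fold change of 0.41 ± 0.12 (SE) at an adjusted p of 0.0289, a call lost without F19 replicate 1 (0.106) or WLH replicate 1 or 2 (0.128 and 0.137).

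**Figure D2:**
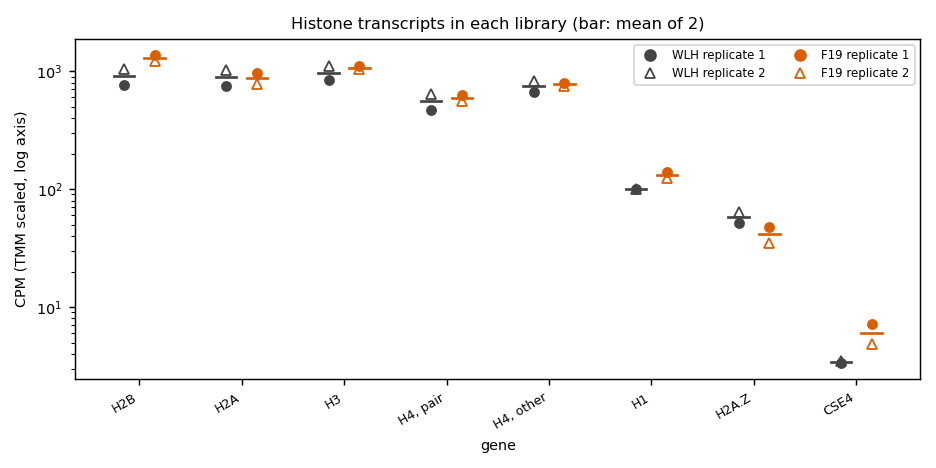
CPM of histone genes in each library on a log axis, with F19 and WLH apart and a bar at the mean of 2 libraries. H3, H2A and H4 overlap between the strains, while H2B sits at 1212 and 1374 in F19 against 760.0 and 1043 in WLH.

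Ratios within a library do not depend on the scaling between libraries, and they were chosen after the values were seen. Raw counts of H2B over H2A, the neighbours of 1 divergent pair, were 1.42 and 1.55 in F19 and 1.01 and 1.02 in WLH. The ratio was higher in both F19 libraries, on average by 1.47-fold, and the exact two-sided permutation test gave p = 0.333, the smallest value that 2 against 2 libraries allow. H3 over its H4 neighbour was 1.76 and 1.86 in F19 and 1.81 and 1.71 in WLH, which overlapped. H2B over H3 was 1.252 and 1.17 in F19 and 0.897 and 0.950 in WLH. H2A.Z over H2A was 0.0495 and 0.0450 in F19 and 0.0692 and 0.0618 in WLH, so this ratio was lower in both F19 libraries. The strains thus overlapped for the ratio of the H3 pair and not for that of the H2B pair.

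**Figure D3:**
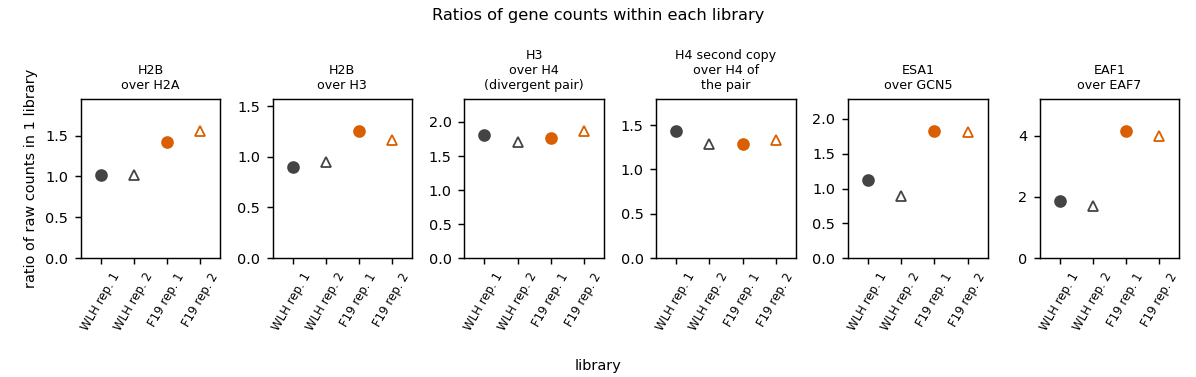
Ratios of raw counts between genes of the same library, for F19 and WLH replicates 1 and 2. H2B over H2A lies at 1.42 and 1.55 in F19 against 1.01 and 1.02 in WLH, while H3 over H4 overlaps between the strains.

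Of the 4 tested histone-fold genes without a histone's name or ortholog number, 2 rose and 1 fell, beside 25.9% and 25.5% of all genes. Of the 4, 3 carry a transcription factor term and 1 carries none. Negative cofactor 2 binds the TATA-binding protein on promoters and can block the assembly of the initiation machinery. BKA90DRAFT_135160, which carries its term and lies at 299458 to 300276 of scaffold ML755987.1, had 62.6 and 48.8 CPM in F19 and 113 and 107 CPM in WLH. All F19 values were below all WLH values, and it fell by a log2 fold change of -0.98 ± 0.15 (SE) at an adjusted p of 0.00230. The other gene with this term, BKA90DRAFT_135800, is described as DNA polymerase epsilon subunit C and lay outside the rule. Its log2 fold change of -0.22 did not pass. Neither gene has an ortholog number, so the name negative cofactor 2 rests here on the term.

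The CCAAT-binding factor is a transcription factor whose histone-fold subunits bind CCAAT boxes; in *S. cerevisiae* it is best known for activating respiratory genes. BKA90DRAFT_134215, at 178770 to 179698 of scaffold ML755983.1, had 95.7 and 93.7 CPM in F19 and 53.4 and 51.8 CPM in WLH. It rose by 1.80-fold, a log2 fold change of 0.85 ± 0.11 (SE) at an adjusted p of 0.00152, and replicates of a strain differed by less than the strains did. The second such gene, BKA90DRAFT_133100, had 67.7 and 69.8 CPM in F19 and 51.5 and 51.6 CPM in WLH and rose by 1.33-fold (adjusted p = 0.0233); its adjusted p was 0.0600 without F19 replicate 2 and 0.106 and 0.111 without WLH replicates 1 and 2. The subunit outside the rule, BKA90DRAFT_142347, had 45.7 and 45.8 CPM in F19 and 39.3 and 40.5 CPM in WLH. Its log2 fold change of 0.20 did not pass (adjusted p = 0.223). The remaining histone-fold gene, BKA90DRAFT_110683, has neither a term nor an ortholog number. It overlapped between the strains, with a log2 fold change of 0.25.

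Methylation of histone lysines was represented by 4 methyltransferases and 1 demethylase. The H3 lysine-4 methyltransferase (BKA90DRAFT_14079) is the catalytic subunit of COMPASS, which marks the start of transcribed genes. It lies at 290412 to 294083 of scaffold ML755978.1 on the minus strand and averaged 11.6 FPKM. Its libraries held 52.3 and 61.7 CPM in F19 and 23.8 and 24.5 CPM in WLH. Both F19 values lay far above both WLH values, and the log2 fold change was 1.24 ± 0.15 (SE), with an interval from 0.89 to 1.58 and an adjusted p of 0.000982.

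The other 3 methyltransferase genes, which act on other residues, also had higher CPM in both F19 libraries than in either WLH library, as did 39.9% of all genes, and did not pass in edgeR's test. The H3 lysine-36 enzyme (BKA90DRAFT_135000), which follows elongating polymerase, had 109 and 100.3 CPM in F19 and 78.7 and 88.2 CPM in WLH, with a log2 fold change of 0.33 (interval 0.03 to 0.62; adjusted p = 0.0625). The H3 lysine-79 enzyme (BKA90DRAFT_137281) had a log2 fold change of 0.26 and SET9 (BKA90DRAFT_99366), which methylates H4 lysine 20 in *S. pombe*, of 0.23. With library totals all 4 methyltransferases passed, under a scaling in which 37.7% of all genes rose. The JmjC demethylase (BKA90DRAFT_132511) overlapped between the strains at a log2 fold change of -0.08. The ratio of lysine-4 to lysine-36 methyltransferase counts within a library was 0.479 and 0.615 in F19 and 0.302 and 0.278 in WLH, without overlap. This pair was chosen after the values were seen. It sets the largest rise of the set over a gene with a log2 fold change of 0.33, so the separation adds no support.

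Among 11 genes of histone acetylation, 2 rose, 3 fell and 6 did not pass, with a median log2 fold change of -0.22. Beside them, 25.9% of all genes rose and 25.5% fell. The changes ran in both directions within the same machinery, as they did among all genes. NuA4 is the complex that acetylates H4 and H2A; ESA1 is its catalytic subunit and EAF1 the platform on which its modules assemble. EAF1 (BKA90DRAFT_20284, 186040 to 189051 of scaffold ML756004.1) had 106 and 104 CPM in F19 and 61.2 and 62.6 CPM in WLH. It rose by 1.70-fold, a log2 fold change of 0.76 ± 0.11 (SE) at an adjusted p of 0.00212. EAF1 overlaps by 218 bases a gene on the opposite strand, BKA90DRAFT_137886. That gene had 1274 and 773 CPM in F19 and 1209 and 1294 CPM in WLH. These are more counts than EAF1 had in every library, without scaling by length. The log2 fold change of BKA90DRAFT_137886, -0.29, did not pass (edgeR adjusted p = 0.345). Reads in the overlap cannot be told apart without strand.

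ESA1 (BKA90DRAFT_138951) had 81.7 and 86.3 CPM in F19 and 63.9 and 64.6 CPM in WLH and rose by 1.31-fold (adjusted p = 0.0276), a call lost without F19 replicate 2 (0.0770) or WLH replicate 1 or 2 (0.121 and 0.120). It overlaps by 56 bases a gene on the same strand, BKA90DRAFT_157842, with a log2 fold change of 0.80. EAF7 (BKA90DRAFT_141021), a small NuA4 subunit, had 25.7 and 26.1 CPM in F19 and 32.8 and 36.7 CPM in WLH and fell by a log2 fold change of -0.43 (adjusted p = 0.0429), a call lost without any 1 of the 4 libraries (0.0879 to 0.218). Subunits of the same complex thus lay on both sides of no change. EAF1 over EAF7 counts within a library were 4.15 and 3.97 in F19 and 1.87 and 1.70 in WLH. This ratio sets a gene called higher over one called lower, so its separation followed from that choice and adds no support. YNG2, EAF6 and EAF3, further NuA4 subunits, had log2 fold changes of 0.34, 0.24 and -0.27 and did not pass; YNG2 lay closest, at an adjusted p of 0.0518.

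GCN5 (BKA90DRAFT_133756), the acetyltransferase of the SAGA coactivator that acts on H3, had 44.8 and 47.7 CPM in F19 and 57.1 and 72.7 CPM in WLH. It fell by a log2 fold change of -0.49 ± 0.15 (SE) at an adjusted p of 0.0328. Subunit 2 of the type B acetyltransferase (BKA90DRAFT_137818), which acetylates new histones before they reach DNA, had 83.2 and 74.97 CPM in F19 and 121 and 114 CPM in WLH and fell by 1.49-fold (adjusted p = 0.00758). The catalytic subunit of the type B enzyme, BKA90DRAFT_142139, had a log2 fold change of -0.22 and did not pass. Counts of ESA1 over GCN5 within a library were 1.82 and 1.81 in F19 and 1.12 and 0.889 in WLH. Here too a gene called higher was set over one called lower, so the separation followed from the choice. With library totals the calls on GCN5, EAF7 and the type B subunit 2 were lost (adjusted p = 0.208, 0.301 and 0.0561). For GCN5 the adjusted p was 0.0964, 0.0680 and 0.222 without F19 replicate 1, F19 replicate 2 and WLH replicate 2, and for the type B subunit 2 it was 0.0596 without WLH replicate 1.

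The partners of these genes were looked up by complex term after the values were seen. Of 10 genes with the NuA4 term, which the annotation gives to EAF3 and EAF7 but not to EAF1 or ESA1, 3 rose, 4 fell and 3 did not pass, beside 25.9% and 25.5% of all genes. With library totals 4 rose and 2 fell, and without WLH replicate 1 only 2 fell and the risers were no longer called. The risers included BKA90DRAFT_100800, with the ortholog number of Tra1, the scaffold that contacts activators, at a log2 fold change of 0.52, and SWC4, at 0.48. Those that fell included the RuvB-like helicases 1 and 2, at -0.98 and -0.69, and actin-related protein 4, at -0.48, which NuA4 shares with remodelling complexes.

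**Figure D4:**
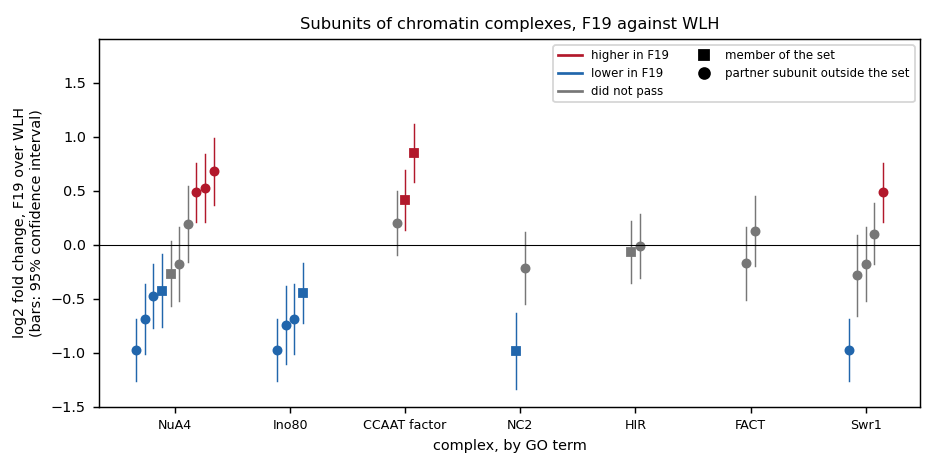
Log2 fold change, F19 over WLH, with the 95% confidence interval, of genes grouped by complex term; squares are genes of the set and circles partner subunits outside it, and a gene with several terms is drawn once in each. NuA4 subunits spread from -0.98 to 0.68, while the 4 Ino80 genes lie between -0.98 and -0.45.

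Deacetylation was represented in the set by 3 genes, of which 1 fell and 2 did not pass, beside 25.5% of all genes that fell. Genes with the Rpd3 complex term, including those outside the set, are counted further below. The Rxt3-domain gene (BKA90DRAFT_143298) encodes a subunit of the large Rpd3 deacetylase complex and had 37.6 and 34.8 CPM in F19 and 48.7 and 45.9 CPM in WLH. It fell by 1.31-fold at an adjusted p of 0.0450, a call lost in DESeq2 (0.0739), with library totals (0.380) and without any 1 library (0.0534 to 0.195). The class II complex subunit (BKA90DRAFT_132356) had a log2 fold change of -0.39 (adjusted p = 0.0607). The gene with a histone deacetylase domain (BKA90DRAFT_134546) averaged only 2.46 FPKM, and its log2 fold change was 0.71 ± 0.27 (SE) at an adjusted p of 0.0615. These 3 genes lie close to the threshold on either side.

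Remodellers formed the largest family, with 17 genes, of which 6 rose, 1 fell and 10 did not pass. Their median log2 fold change was -0.10, and of all genes 25.9% rose and 25.5% fell. Of the 17, 13 are described as SNF2-family proteins, and 5 of those rose and 1 fell, with a median of -0.10. BKA90DRAFT_133521, at 346395 to 351731 of scaffold ML755980.1, had 127 and 126 CPM in F19 and 70.8 and 72.0 CPM in WLH. It rose by 1.77-fold, a log2 fold change of 0.82 ± 0.11 (SE) at an adjusted p of 0.00159, and has no ortholog number, so no role is given. BKA90DRAFT_143409, with the ortholog number of the Fun30 remodeller, which acts in silent chromatin and at DNA breaks, had 107 and 95.03 CPM in F19 and 64.7 CPM in each WLH library. It rose by 1.56-fold (adjusted p = 0.00496). BKA90DRAFT_138466, with the ortholog number of RAD54B, a recombination protein, had 17.3 and 14.4 CPM in F19 and 8.999 and 9.29 CPM in WLH and rose by 1.73-fold (adjusted p = 0.0129; 0.0816 and 0.0731 without WLH replicates 1 and 2).

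BKA90DRAFT_102143, with the ortholog number of SHPRH, a DNA damage tolerance protein in human cells, rose by 1.49-fold. It was named after its values were seen, because its libraries were so close within each strain, at 83.5 CPM in both F19 libraries and 56.2 and 55.7 CPM in WLH. Its adjusted p was 0.00589, and 0.0525 without WLH replicate 2. A second gene with the SHPRH ortholog number, BKA90DRAFT_137608, averaged 43.5 FPKM, beside 13.2 FPKM for BKA90DRAFT_102143. Its log2 fold change of 0.29 did not pass (edgeR adjusted p = 0.151). The 2 remaining genes that rose changed least, BKA90DRAFT_141215 at 0.40 and BKA90DRAFT_140685, with an ISWI-type ortholog number, at 0.36 on the log2 scale. The call on BKA90DRAFT_141215 was lost in DESeq2 (0.0525) and without F19 replicate 2 (0.143) or WLH replicate 1 or 2 (0.172 and 0.136). That on BKA90DRAFT_140685 was lost without any 1 of the 4 libraries (0.0729 to 0.223), and both were lost with a replicate block. BKA90DRAFT_141215 overlaps by 96 bases a gene on the opposite strand, BKA90DRAFT_141214, with a log2 fold change of -0.10. The gene of the keyword search that was left out for its repair pathway, BKA90DRAFT_137701, is also an SNF2-family gene and rose by a log2 fold change of 1.16.

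The remodeller that fell was BKA90DRAFT_135745, with the ortholog number of INO80, a nucleosome-spacing and H2A.Z-editing enzyme. It lies at 214977 to 220145 of scaffold ML755990.1 and had 122 and 118 CPM in F19 and 169 and 159 CPM in WLH. Its log2 fold change was -0.45 ± 0.12 (SE) at an adjusted p of 0.0181, and the call was lost with library totals (0.172), without F19 replicate 2 (0.0516) and without WLH replicate 1 or 2 (0.108 and 0.0726). By complex term, looked up after the values were seen, all 4 Ino80 genes fell, between -0.98 and -0.45, beside 25.5% of all genes, and 2 of them are the RuvB-like helicases already counted under NuA4. With library totals and without F19 replicate 2, 3 of the 4 fell, and without WLH replicate 1 or 2 only the helicases did.

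Other remodellers had log2 fold changes from -0.33 to 0.29 and did not pass. They included the SNF2-family gene with the ortholog number of the RSC and SWI/SNF ATPases (BKA90DRAFT_31313, -0.14), the CHD1-type gene (BKA90DRAFT_102385, -0.31), the ISWI-type gene BKA90DRAFT_107575 (-0.10) and SFH1, a core RSC subunit (BKA90DRAFT_141607, -0.31). For BKA90DRAFT_31313 the interval ran from -0.46 to 0.18, so a change of up to that size in either direction was not resolved with 2 libraries a strain.

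Of 4 histone chaperones and assembly genes, 1 rose, 1 fell and 2 did not pass, beside 25.9% of all genes that rose and 25.5% that fell. The large subunit of chromatin assembly factor 1 (BKA90DRAFT_135439), which deposits H3 and H4 behind replication forks, had 33.7 and 25.2 CPM in F19 and 17.8 and 17.5 CPM in WLH. It rose by 1.67-fold, a log2 fold change of 0.74 ± 0.18 (SE) at an adjusted p of 0.0143, with F19 replicate 1 above replicate 2; without WLH replicates 1 and 2 the adjusted p was 0.0853 and 0.0924. A gene described only as a histone chaperone (BKA90DRAFT_36583) had 49.1 and 46.3 CPM in F19 and 57.4 and 67.4 CPM in WLH and fell by 1.31-fold, just inside the threshold (adjusted p = 0.0482), a call lost with library totals (0.397) and without any 1 library (0.0749 to 0.271). ASF1, which hands H3 and H4 to the assembly factors, and HIR3, a regulator of histone gene transcription, had log2 fold changes of -0.29 and -0.07 and did not pass.

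The bromodomain genes went apart. BKA90DRAFT_129426, with the ortholog number of BDF1, which binds acetylated H4 and works with the general transcription factor TFIID, had 350.3 and 444 CPM in F19 and 238 and 246 CPM in WLH. It rose by 1.64-fold (adjusted p = 0.00893; 0.0839 and 0.0735 without WLH replicates 1 and 2). The other bromodomain gene (BKA90DRAFT_132676) had 59.8 and 54.1 CPM in F19 and 70.9 and 77.2 CPM in WLH and fell by a log2 fold change of -0.38 (adjusted p = 0.0407), a call lost with library totals (0.393), without F19 replicate 2 (0.153) and without WLH replicate 1 or 2 (0.0992 and 0.202).

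NHP6 (BKA90DRAFT_45085) encodes a small protein that bends DNA and helps the FACT complex loosen nucleosomes. Its gene, at 17299 to 18325 of scaffold ML756055.1, had 187 and 184 CPM in F19 and 318 and 355 CPM in WLH. It fell by a log2 fold change of -0.86 ± 0.13 (SE) at an adjusted p of 0.00236, and the strains lay far apart relative to their replicates. SPT2, a nucleosome-binding protein of transcribed genes, had a log2 fold change of 0.07, and KTI12 of 0.47 (adjusted p = 0.0681).

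Of the 23 members called, 7 kept their call and direction under all 11 alternative fits, which include leaving out each library. They are the H3 lysine-4 methyltransferase, EAF1, the CCAAT-binding factor gene BKA90DRAFT_134215, the SNF2-family genes BKA90DRAFT_133521 and BKA90DRAFT_143409, the negative cofactor 2 gene BKA90DRAFT_135160 and NHP6. Thus 5 of the genes higher in F19 and 2 of the lower ones were called throughout. The share of all called genes that kept their call was not counted, so 7 of 23 cannot be read as many or few.

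**Figure D5:**
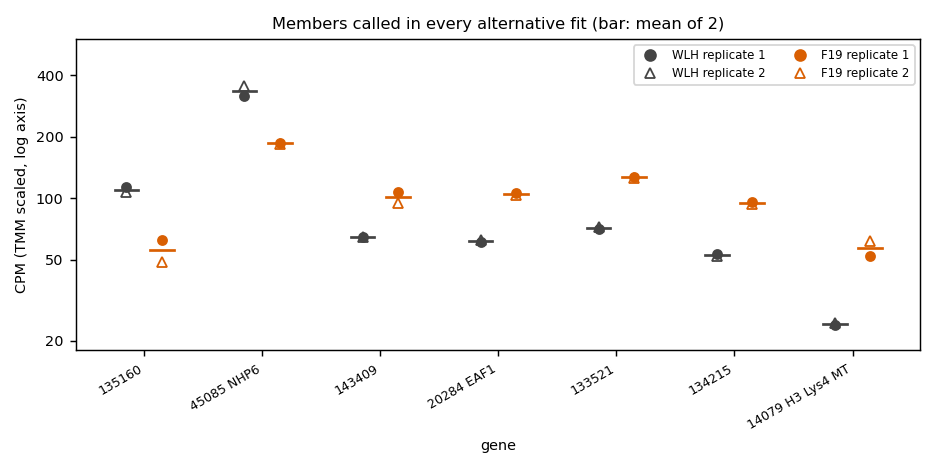
CPM on a log axis of the 7 genes called under every alternative fit, with circles for replicate 1, triangles for replicate 2 and a bar at the mean of 2 libraries. In each gene the F19 and WLH libraries lie apart, with 52.3 and 61.7 CPM in F19 against 23.8 and 24.5 CPM in WLH for the H3 lysine-4 methyltransferase.

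Lists of genes that work beside chromatin had these counts, beside 25.9% of all genes that rose and 25.5% that fell. Of 52 genes of basal transcription factors and Mediator, which bring RNA polymerase II to promoters, 2 rose, 19 fell and 31 did not pass, with a median log2 fold change of -0.33; with library totals 7 rose and 8 fell, and without WLH replicate 1 or 2 the number that fell was 9 and 4. Of 37 genes of the DNA replication pathway, 24 rose, 3 fell and 10 did not pass, with a median of 0.58; with library totals 29 rose and 1 fell, and without WLH replicate 1 or 2 the number that rose was 13 and 15. The core histone genes, whose transcription is tied to DNA synthesis in dividing cells, did not pass in the same libraries, at log2 fold changes of 0.13 for H3, 0.52 for H2B and -0.02 for H2A. The difference between these lists was not tested.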

How the data were processed

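Poly(A) RNA was sequenced as paired ends from 2 libraries of each strain by a protocol that, per the labels, included no strand marking. Per the submitters' processing notes, the tools were HTSeq 0.6.1, HISAT2 2.2.1, DESeq2 (no version) and cutadapt 1.9.1. Not given in the sources used here are the genome build, the settings and how strand was treated in counting. Per the file headers, the authors deposited raw counts and FPKM for 6800 features; 3 name no gene, held 0.333% and 0.387% of the F19 libraries' counts and 0.147% and 0.135% of the WLH libraries', and were left out. The FPKM matched counts divided by length and library total within 0.0731% for genes over 100 FPKM. In the column name of WLH replicate 1 a letter stands for the digit. A second deposited table, of genes the authors called, was not used. No sequences are shown.

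The test on raw counts was made in R 4.3.3 with edgeR 4.0.16: filterByExpr, TMM factors of 1.10, 1.07, 0.916 and 0.926, and the two-sided quasi-likelihood test with strain as the only term. P-values were adjusted over 6414 genes by the Benjamini-Hochberg method (threshold 0.05). Standard errors were obtained by dividing the log2 fold change by the root of F, and intervals are at 95%. The biological coefficient of variation was 14.1%. The fits were also run on simulated counts in which few genes changed, by at least 2-fold and evenly up and down. In these data 51.4% of genes were called, so that run cannot vouch for the smaller changes given here. Alternatives were other scalings, no filter, DESeq2 1.42.0, a replicate block, leaving out each library, and limma 3.58.1 on log2(FPKM + 1) and log2(FPKM + 0.1), for genes with a mean of at least 1 FPKM.

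The members, lists, tests and naming rule were chosen with earlier results of these data known. Every histone is named, in each other role the 3 largest rises and falls past the threshold, and every change of at least 2-fold. Families were assigned by hand from description, ortholog number and term; the wording rule fixed earlier would have put the Rxt3-domain gene with acetyltransferases and the EAF and YNG2 subunits with other genes. Genes outside these rules were named after their values were seen.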

Additional observations from a re-analysis of the deposited data

How the results depend on the processing

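Counts of changed members were 23 by edgeR, 18 by DESeq2 and 25 with library totals. Library totals gave 23 higher and 2 lower members, a median log2 fold change of 0.26 (all genes 0.24), and, by family, 3 changed for acetylation, 1 bromodomain, 1 chaperone, 2 histone, 4 methylation and 2 other genes. limma gave with either pseudocount 23 higher, 2 lower, a median of 0.26, and 1 bromodomain, 1 chaperone, 2 histone, 4 methylation and 2 other genes; FPKM are scaled by library totals. DESeq2 gave 5 lower members, 1 bromodomain, 1 chaperone and 0 deacetylation genes (1 by edgeR). Without a filter 1 chaperone passed. At least 2-fold, 1 member changed.

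Same-numbered libraries did not deviate together across genes (r = -0.0908). With 2 libraries a strain this cannot exclude a shared culture or batch, which the labels do not state. A replicate block gave 18 changed members, with 1 bromodomain, 1 chaperone, 0 deacetylation (1 without the block) and 2 histone genes.

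Leaving out each library in turn gave 8 to 19 changed members, 5 to 13 higher and 3 to 6 lower, medians from -0.078 to 0.11, and 1670 to 3121 changed genes in all. By family the ranges were 2 to 3 for acetylation, 0 to 2 bromodomain, 0 to 1 chaperone, 0 to 1 deacetylation, 2 to 3 histone-fold, 0 to 2 histone, 1 to 1 methylation, 1 to 2 other and 2 to 6 remodeller genes. The lowest counts came without a WLH library, where 1 sample stands for that strain. No called member changed direction under these alternatives. Members that were not called did so, H3 and H2A among them, and the members' median was below 0 without WLH replicate 1. With library totals the median log2 fold change of the SNF2-family genes moved from -0.099 to 0.138. At this depth BKA90DRAFT_143801, with at most 3 counts in a library, could not be tested.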

Other observations

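A further 112 genes carry a histone, nucleosome or chromatin term without a keyword in their description; they were looked up after the values were seen. Of 111 tested, 30 rose and 19 fell, with a median log2 fold change of 0.09, beside 25.9% and 25.5% of all genes; with library totals 50 rose and 10 fell. Among complexes by term, 13 SAGA genes held 2 that rose and 1 that fell (GCN5), and 5 Swr1 genes held 1 that rose (SWC4) and 1 that fell (RuvB-like helicase 1). SWR1 itself (BKA90DRAFT_164068), the enzyme that inserts H2A.Z in *S. cerevisiae*, had 79.7 and 72.3 CPM in F19 and 71.5 and 70.3 CPM in WLH, with a log2 fold change of 0.10 that did not pass. Of 8 Rpd3 genes 1 rose and 1 fell. SPT16 and POB3, the FACT subunits that work with NHP6 in *S. cerevisiae*, had log2 fold changes of -0.17 and 0.13, and neither passed, beside -0.86 for NHP6.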
